A study of Homo sapiens with 8 samples.

Results

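The 10 genes described here, SLITRK5, BTF3L4, PURA, EML4, C21orf91, ATAD1, PPAT, POLR1F, ZC3HAV1L and PDIK1L, were lower with doxycycline in both of a pair of brain-metastatic breast cancer cell lines, and none of them has a known link to the receptor MET. They were picked from 18239 genes named on the arrays because of that fall, so the fall itself is given below as a description with no test. What the choice did not fix was how the fall was divided between the lines, how the levels compared before doxycycline, what the other probe sets of each gene recorded, and how related genes behaved.

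Expression was read on 8 Affymetrix arrays, each hybridised with biotin-labelled total RNA of human breast cancer cells labelled 231BrM or SKBrM3. Both lines carried shMet, a doxycycline-inducible short hairpin RNA against MET, in the control arrays as well as in the treated ones, and were cultured in DMEM with serum. Each line was profiled without doxycycline (control) and after 48 h with doxycycline (100 ng, for which no volume is given), with 2 arrays in each of the 4 groups. Whether each line is a single clone, and whether replicate arrays came from separate cultures, cannot be read from the labels. The p-values below therefore reflect how far these arrays differ from one another, a spread that may be technical. No group received doxycycline without the hairpin. Effects of the drug, of the loss of MET and of the hairpin on other transcripts therefore cannot be told apart in these groups. In bulk RNA of this kind, fewer cells of a type and less RNA per cell cannot be told apart either.

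Values are log2 signals per probe set, so a difference of 1 stands for a 2-fold change. Array profiles correlated at 0.992 to 0.998 within a group and at 0.957 to 0.964 between lines. On 231BrM doxycycline replicate 1 the 3′ control probe set of beta-actin exceeded the 5′ one by a log2 difference of 1.24, whereas the remaining 7 arrays had 0.46 to 0.59. This measure of RNA quality sets the array apart. The arrays labelled SKBrM3 did not show high ERBB2, which defines SK-BR-3, a luminal line in which that gene is amplified. The receptor gene ERBB2 had a mean log2 value of 6.71 in SKBrM3 control and 6.81 in 231BrM control, its amplicon neighbour GRB7 had 5.16 and 5.10, and the luminal genes TFAP2B and ESRP1 were under the detection filter. Of 12 SK-BR-3 markers tested between the control groups, 5 were lower in SKBrM3 (KRT7, KRT8, KRT18, KRT19 and SPDEF) and 2 were higher, the luminal factor FOXA1 (6.39 against 5.02, limma adjusted p = 0.000284) and PGAP3 (6.36 against 6.05, adjusted p = 0.0368). The summed signal of all 14 SK-BR-3 markers was 11.56 to 11.60 (log2) on SKBrM3 control arrays and 12.28 to 12.31 on 231BrM control arrays. The mesenchymal gene VIM, typical of MDA-MB-231, was at 12.75 and 12.89, and 9 measured MDA-MB-231 markers summed to 14.34 to 14.36 and 14.50 to 14.53. Of these 9, 3 were called lower in SKBrM3 control and 0 higher, among them SPARC at 4.21 against 6.95 (limma adjusted p = 1.31e-06). "SKBrM3" below therefore stands for the arrays with that label.

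A short hairpin RNA is cut by the enzyme Dicer into a short duplex, and one strand is loaded into an Argonaute protein, which cleaves messages with a full match. The same strand can also lower messages that match only its seed, the bases near its 5′ end, in the way a microRNA does. The 10 genes belong to no single pathway. They include enzymes, a polymerase subunit, nucleic acid binding proteins and a neuronal surface protein, and they are best known from nucleotide synthesis, ribosome production, mitochondrial quality control and nervous system development. No source used here states the hairpin's sequence, so no seed matches were looked for.

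BTF3L4 and PPAT are each transcribed away from a neighbour that starts close by on the other strand. Such paired starts share 1 stretch of promoter, so the stretch between the starts of these pairs is shown here. Their partner genes are compared with the members further on. Starts on the other strand also lie near ZC3HAV1L (LOC107986852, 141 bases away) and SLITRK5 (LOC124900338, 222 bases at the closest, and MIR4500HG, 408 bases). Those stretches are not shown. The sequences are from RefSeq annotation of GRCh38.p14, each written 5′ to 3′ on the strand of the member. Capitals mark matches to an E-box (CACGTG) or a GC box (GGGCGG, or CCGCCC when read on the other strand).
BTF3L4 and TXNDC12, chr1:52056172-52056294, plus strand: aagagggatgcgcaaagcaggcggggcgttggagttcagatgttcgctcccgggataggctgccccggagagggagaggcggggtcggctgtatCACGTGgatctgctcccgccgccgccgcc
PPAT and PAICS, chr4:56435616-56435751, minus strand: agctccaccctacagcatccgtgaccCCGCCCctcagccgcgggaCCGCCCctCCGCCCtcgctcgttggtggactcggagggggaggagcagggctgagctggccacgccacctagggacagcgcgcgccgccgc

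The stretch beside BTF3L4 has 123 bases, 68.3% G or C, and 1 E-box. That beside PPAT has 136 bases, 75% G or C, and 3 GC boxes. A match is a description of the letters only.

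Promoter windows of 250 bases before the start were found for 9 of the 10 genes, as 11 windows of 35116 in the RefSeq table. They lie on 7 chromosomes, and the members were not neighbours of one another. Searched on both strands, a GC box was in 7 windows of 5 genes (C21orf91, EML4, PPAT, SLITRK5 and ZC3HAV1L), against 42.6% of all windows. An E-box, the letters read by MYC and related factors, was in 1 window each of BTF3L4, EML4 and PPAT, against 6.34% of all windows. The CCAAT box was in 1 window, of SLITRK5 (32.0% of all windows), the ETS letters CCGGAAG in 1, of ATAD1 (8.52%), and an NRF1 site in 1, of EML4 (5.07%). No member window held TATAAA (10.7% of all windows), the AP-1 letters TGANTCA (6.57%), an NF-kB site (0.527%) or the cAMP response element TGACGTCA (1.65%), which says only that these letters are not in these windows. The member windows were 57.6 to 78.4% G or C with a median of 62.8%, against a median of 58% over all windows. No motif searched was shared by all of the matched genes.

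The first question is how deep the falls were. A gene was called lower at an adjusted p under 0.05 (limma, Benjamini-Hochberg over 13002 genes tested). All 10 were called in 231BrM, where 0.162% of genes tested were, and in SKBrM3, where 2.28% were; 0.154% were called lower in both. These calls are what the genes were chosen on, so nothing is read from these counts, and neither is anything read from their passing the detection filter. The 231BrM calls depended on how the spread was estimated: 0 of 10 were called when that line's own 4 arrays were used alone, and 1 or 0 without 231BrM control replicate 1 or 2. All 10 had both doxycycline arrays below both control arrays in both lines, as did 5.56% of genes tested.

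**Figure D1:**
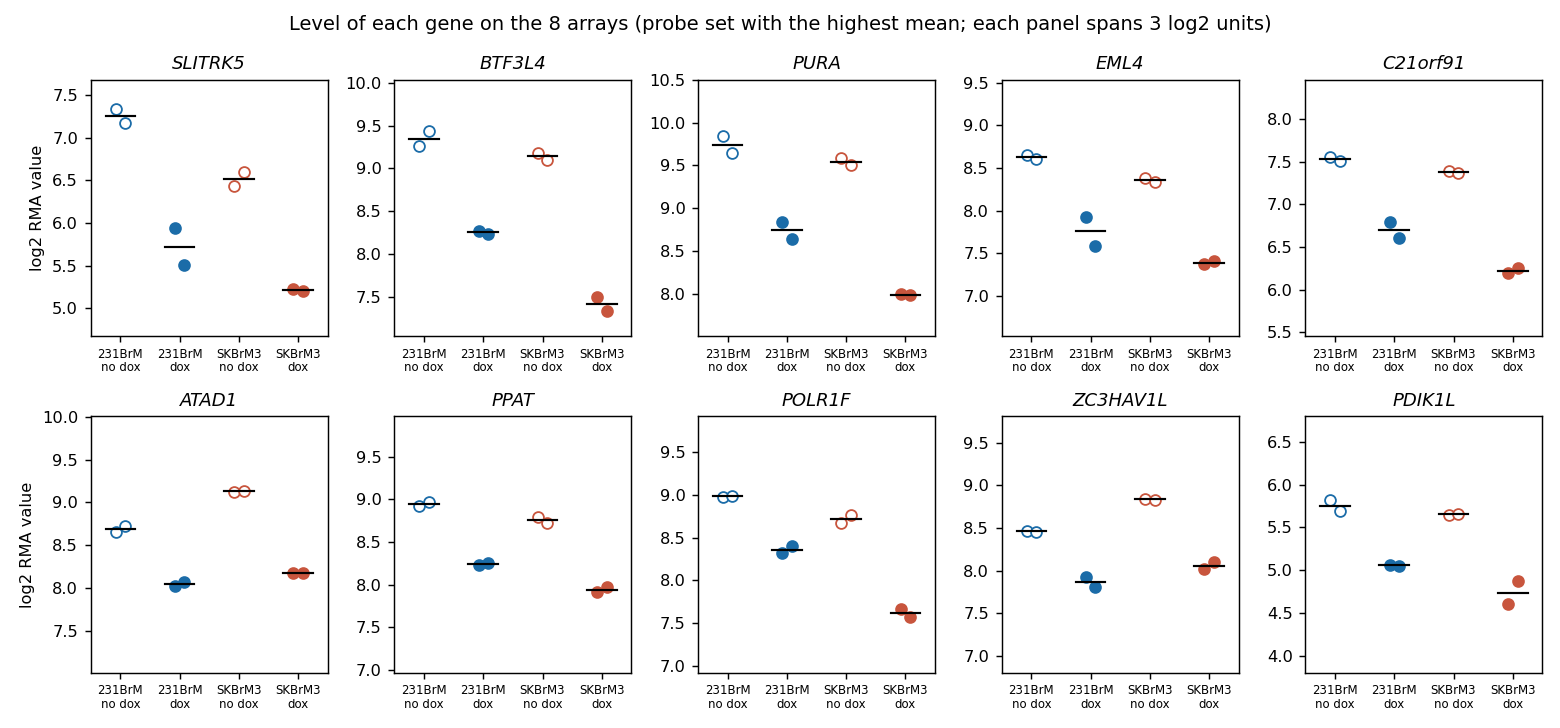
Log2 signal (vertical axis) of each of the 10 genes on the 8 arrays, 1 panel per gene, with the groups along the horizontal axis, points for single arrays and bars for group means. In every panel both doxycycline points lie below both control points of the same line, and in 8 of the 10 panels the lowest group is SKBrM3 with doxycycline.

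SLITRK5 encodes a neuronal transmembrane protein with leucine-rich repeats that acts in synapse formation and neurite growth. Log2 values were 7.34 and 7.17 in 231BrM control, 5.94 and 5.51 in 231BrM doxycycline, 6.44 and 6.60 in SKBrM3 control, and 5.23 and 5.20 in SKBrM3 doxycycline. The change was -1.53 in 231BrM and -1.31 in SKBrM3 (SE 0.136 in each line), which is 2.89-fold and 2.48-fold lower. In 231BrM only MET itself had a larger fall among the genes tested, while in SKBrM3 SLITRK5 was at rank 15. The control groups did not overlap between lines either, with 231BrM the higher.

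Of the genes acting on protein synthesis and nucleic acids, BTF3L4 is a paralog of BTF3, a subunit of the complex that meets newly made proteins at the ribosome. Its log2 values were 9.26 and 9.44 in 231BrM control, 8.27 and 8.23 in 231BrM doxycycline, 9.18 and 9.10 in SKBrM3 control, and 7.50 and 7.33 in SKBrM3 doxycycline. This was a change of -1.10 in 231BrM and -1.73 in SKBrM3 (SE 0.0945), or 2.15-fold and 3.31-fold lower. The control arrays of both lines lay close together, and the doxycycline arrays of SKBrM3 were the lowest by a wide margin. BTF3L4 had the deepest fall of the 10 genes in SKBrM3.

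PURA encodes a protein that binds purine-rich single-stranded DNA and RNA and is needed for brain development. Its log2 values were 9.84 and 9.65 in 231BrM control, 8.84 and 8.64 in 231BrM doxycycline, 9.59 and 9.50 in SKBrM3 control, and 7.99 and 7.98 in SKBrM3 doxycycline. The change was -1.01 in 231BrM and -1.56 in SKBrM3 (SE 0.0977), or 2.01-fold and 2.95-fold lower. As with BTF3L4, the lines started at similar levels and SKBrM3 ended lower.

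POLR1F, named TWISTNB in older annotation, is a subunit of RNA polymerase I, which transcribes ribosomal RNA. Its log2 values were 8.98 and 8.99 in 231BrM control, 8.32 and 8.40 in 231BrM doxycycline, 8.67 and 8.77 in SKBrM3 control, and 7.67 and 7.57 in SKBrM3 doxycycline. The change was -0.63 in 231BrM and -1.09 in SKBrM3 (SE 0.0805), or 1.54-fold and 2.13-fold lower. SKBrM3 was below 231BrM on every array of the same condition.

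Among the enzymes, PPAT catalyses the first committed step of de novo purine synthesis. Log2 values were 8.92 and 8.97 in 231BrM control, 8.23 and 8.25 in 231BrM doxycycline, 8.79 and 8.72 in SKBrM3 control, and 7.91 and 7.97 in SKBrM3 doxycycline. The change was -0.71 in 231BrM and -0.82 in SKBrM3 (SE 0.0743), or 1.63-fold and 1.76-fold lower. Replicates differed by far less than the groups did, and the falls in the lines were nearly alike in size.

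ATAD1 is an ATPase of the outer mitochondrial membrane that pulls out mislocalised tail-anchored proteins. On the log2 scale it read 8.65 and 8.72 in 231BrM control, 8.02 and 8.07 in 231BrM doxycycline, 9.12 and 9.14 in SKBrM3 control, and 8.17 and 8.17 in SKBrM3 doxycycline. The change was -0.64 in 231BrM and -0.96 in SKBrM3 (SE 0.0736), or 1.56-fold and 1.95-fold lower. Here SKBrM3 started higher, and with doxycycline the lines came close together.

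PDIK1L, a serine/threonine kinase related to STK35, had log2 values of 5.82 and 5.69 in 231BrM control, 5.06 and 5.05 in 231BrM doxycycline, 5.65 and 5.66 in SKBrM3 control, and 4.60 and 4.87 in SKBrM3 doxycycline. The change was -0.70 and -0.92 (SE 0.1), or 1.63-fold and 1.89-fold lower. The doxycycline values are near the filter of 4.41, the 40th percentile of all values, where array signals compress, and PDIK1L was measured by 1 probe set.

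EML4 binds and stabilises microtubules and is known from its fusion with the kinase ALK in lung cancer. The arrays gave log2 values of 8.65 and 8.60 in 231BrM control, 7.93 and 7.59 in 231BrM doxycycline, 8.38 and 8.33 in SKBrM3 control, and 7.37 and 7.41 in SKBrM3 doxycycline. The change was -0.86 in 231BrM and -0.96 in SKBrM3 (SE 0.109), or 1.82-fold and 1.95-fold lower. The treated 231BrM arrays stood further apart from each other than any other pair of this gene.

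C21orf91, a gene of chromosome 21 linked to cortical neuron development, had log2 values of 7.56 and 7.51 in 231BrM control, 6.79 and 6.61 in 231BrM doxycycline, 7.39 and 7.37 in SKBrM3 control, and 6.20 and 6.25 in SKBrM3 doxycycline. The change was -0.84 and -1.15 (SE 0.0847), or 1.79-fold and 2.22-fold lower. All 4 groups were separate, in the order 231BrM control, SKBrM3 control, 231BrM doxycycline and SKBrM3 doxycycline.

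ZC3HAV1L is a paralog of ZC3HAV1, the antiviral zinc finger protein ZAP. Log2 values were 8.47 and 8.45 in 231BrM control, 7.93 and 7.81 in 231BrM doxycycline, 8.84 and 8.83 in SKBrM3 control, and 8.02 and 8.10 in SKBrM3 doxycycline. The change was -0.59 and -0.78 (SE 0.078), or 1.51-fold and 1.72-fold lower, the smallest of the 10 in either line. Like ATAD1 on the probe set used, it was at the higher level in SKBrM3 in both conditions.

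Over the 10 genes the log2 change ran from -1.53 to -0.59 with a median of -0.77 in 231BrM, and from -1.73 to -0.78 with a median of -1.03 in SKBrM3. The medians of all genes tested were 0.05 and 0.01. SLITRK5, BTF3L4 and PURA were over 2-fold lower in both lines, and C21orf91 and POLR1F in SKBrM3 alone by that measure. MET, the hairpin's target, had a change of -3.76 in 231BrM and -3.50 in SKBrM3, or 13.5-fold and 11.3-fold lower, so that each of the 10 falls was smaller than that of MET. As to where the choice ended, 29 genes (0.223% of those tested) had a fall in each line at least as large as the smallest of the 10. The other 19 of these include MET, the chemokine genes CXCL1, CXCL2, CXCL3 and CXCL8, and the cytokine gene IL1B.

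**Figure D2:**
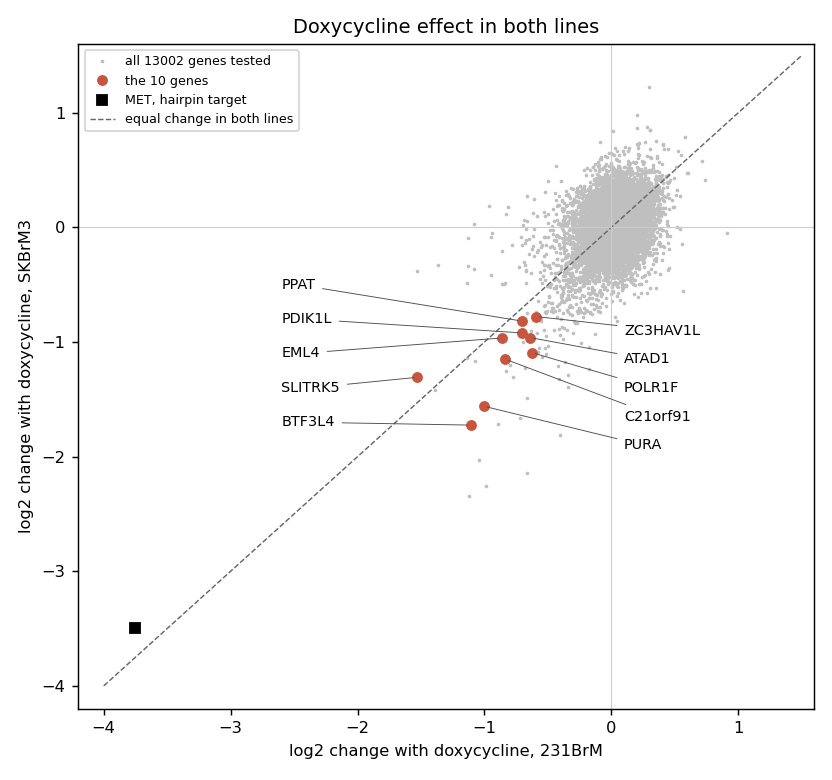
Log2 change with doxycycline in 231BrM (horizontal axis) against that in SKBrM3 (vertical axis) for all 13002 genes tested, with the 10 genes and MET marked and a dashed line of equal change. Of the 10, 9 lie below the dashed line, and SLITRK5 lies above it with changes of -1.53 and -1.31.

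The second question is whether the falls differed between the lines, which the choice of genes did not fix. The fall was larger in SKBrM3 for 9 of the 10 genes and larger in 231BrM for SLITRK5, while the difference of the effects (SKBrM3 minus 231BrM) was below 0 for 56.6% of all genes tested. The median difference was -0.27 over the 10 genes and -0.03 over all genes. A larger fall in SKBrM3 was also seen in 18 of the 19 other genes with falls of at least this size, MET being the exception. Those genes had to reach -0.59 in 231BrM but -0.78 in SKBrM3. A larger fall in SKBrM3 is thus partly built into that set, and nothing is read from the count of 18. Tested gene by gene with limma, 0 of the 10 differences passed an adjusted p under 0.05, and 0.0231% of all genes did. At an unadjusted p under 0.05 the count was 5 of 10, all with the larger fall in SKBrM3, against 6.86% of all genes in that direction.

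BTF3L4 had the largest difference, -0.62 (95% confidence interval -0.93 to -0.32, limma adjusted p = 0.214). PURA followed with -0.55 (-0.87 to -0.24, limma adjusted p = 0.267), then POLR1F with -0.47 (-0.73 to -0.21, adjusted p = 0.262). For these genes the interval leaves out 0 but the adjustment over all genes does not leave them past the threshold. ATAD1 had -0.32 (-0.56 to -0.09, limma adjusted p = 0.331) and C21orf91 -0.31 (-0.59 to -0.04, adjusted p = 0.389).

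For the other 5 the interval held 0. PDIK1L had a difference of -0.22 (-0.54 to 0.11, limma adjusted p = 0.602) and ZC3HAV1L one of -0.19 (-0.44 to 0.06, adjusted p = 0.563). PPAT had -0.11 (-0.35 to 0.13, limma adjusted p = 0.727) and EML4 -0.10 (-0.46 to 0.25, adjusted p = 0.838). These intervals still allow differences about as large as several of those above. SLITRK5, the only one with the opposite sign, had 0.22 (-0.22 to 0.66, limma adjusted p = 0.699), and MET had 0.26 (-0.21 to 0.74, adjusted p = 0.673).

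The 231BrM doxycycline arrays bear on these differences. Without replicate 1, the array with the high actin 3′ to 5′ difference, the fall was larger in SKBrM3 for 8 of the 10, with differences of 0.06 for EML4 and 0.43 for SLITRK5. Without replicate 2 the difference of SLITRK5 was 0.009, so the size of the one exception depended on which of these arrays was kept. With replicate 1 left out, the 231BrM changes were -1.74 for SLITRK5, -1.12 for BTF3L4, -1.10 for PURA and -1.03 for EML4. Leaving out replicate 2 left replicate 1, the array with the high actin difference, as the only 231BrM doxycycline array. The differences were then -0.64 for BTF3L4 and -0.65 for PURA. They rest on that array, so no calls are read from this fit. The part of RNA quality in the results was not tested.

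**Figure D3:**
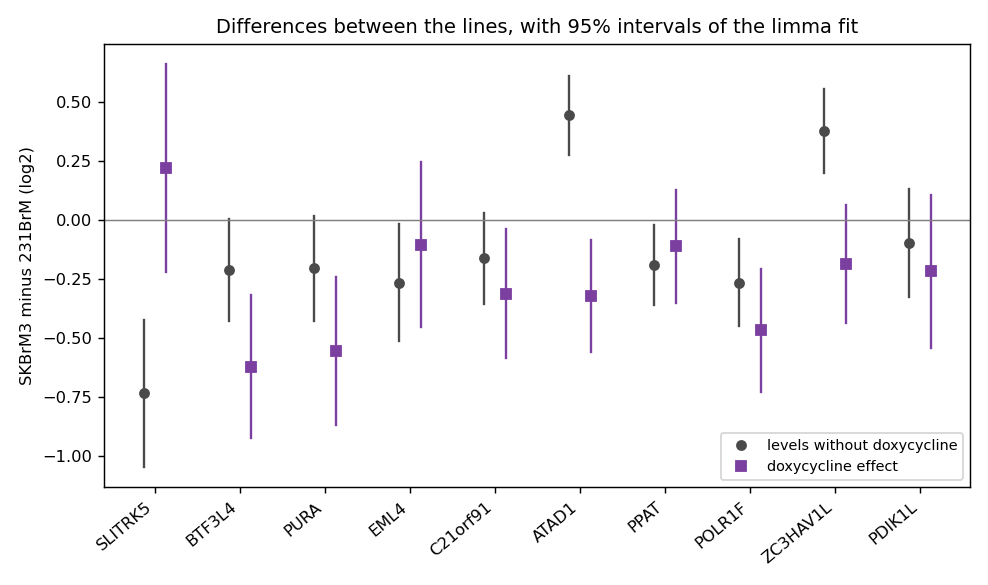
Difference of the doxycycline effects (SKBrM3 minus 231BrM) and difference of the control levels (SKBrM3 minus 231BrM) for each of the 10 genes, in log2 units, with lines for 95% confidence intervals. The effect differences run from -0.62 for BTF3L4 to 0.22 for SLITRK5, and the control differences from -0.73 for SLITRK5 to 0.44 for ATAD1.

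Before doxycycline the lines differed for some of the 10 genes and not detectably for others. Of the 10, 4 passed an adjusted p under 0.05 between the control groups (limma), where 39.7% of all genes did, so a count of 4 is near that share. Of the 4, 2 were lower in SKBrM3 (19.8% of all genes) and 2 higher (19.9%). SLITRK5 was lower in SKBrM3 by a log2 difference of -0.73 (95% confidence interval -1.05 to -0.42, limma adjusted p = 0.00291), and POLR1F by -0.27 (-0.45 to -0.08, adjusted p = 0.029). ATAD1 was higher in SKBrM3 by 0.44 (0.28 to 0.61, limma adjusted p = 0.00163) and ZC3HAV1L by 0.38 (0.20 to 0.55, adjusted p = 0.00501). The call of POLR1F was lost without any 1 of the 4 control arrays (adjusted p 0.0592 to 0.156) and with arrays centred on their median (0.091).

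For the other 6 the control difference did not pass. EML4 had -0.27 (limma adjusted p = 0.0833), BTF3L4 -0.21 (adjusted p = 0.11), PURA -0.20 (0.131), PPAT -0.19 (0.0715), C21orf91 -0.16 (0.164) and PDIK1L -0.10 (0.473). The median size of the control difference was 0.24 over the 10 genes and 0.22 over all genes tested. With doxycycline 8 of the 10 were at the lower level in SKBrM3, by -0.83 for BTF3L4, -0.76 for PURA and -0.73 for POLR1F, while ATAD1 (0.12, on the probe set used) and ZC3HAV1L (0.19) were at the higher level there.

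The third question is whether other probe sets of the same genes recorded the fall. The 10 genes have 27 probe sets of 45259 that name 1 gene, of which 24 passed the filter. Besides the 10 used above, 14 passed, from 7 genes. The probe sets of 1 gene measure the same RNA of the same arrays and are no replicates. Of the 14, 12 had both doxycycline arrays below both controls in 231BrM, 13 in SKBrM3 and 11 in both. In the limma fit over all probe sets, their adjusted p for the 231BrM change ran from 0.0151 (BTF3L4) to 0.96 (EML4). Of the 14, only that BTF3L4 probe set was under 0.05. For the SKBrM3 change their limma adjusted p ran from 0.00128 (BTF3L4) to 0.987 (EML4). In the same fit some probe sets used above were also over 0.05 for the 231BrM change. These were ATAD1 (limma adjusted p = 0.0575), POLR1F (0.0829), EML4 (0.0842), ZC3HAV1L (0.0842) and PDIK1L (0.137). Those used for BTF3L4, SLITRK5, PURA, C21orf91 and PPAT were under it (0.0196 to 0.0407). Over all genes tested, each read by its probe set with the highest mean, 12.1% were lower without overlap in 231BrM, 27.2% in SKBrM3 and 5.56% in both. Shares over all probe sets were not worked out. The genes were chosen for a fall on these same arrays, so the counts are a description only.

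**Figure D4:**
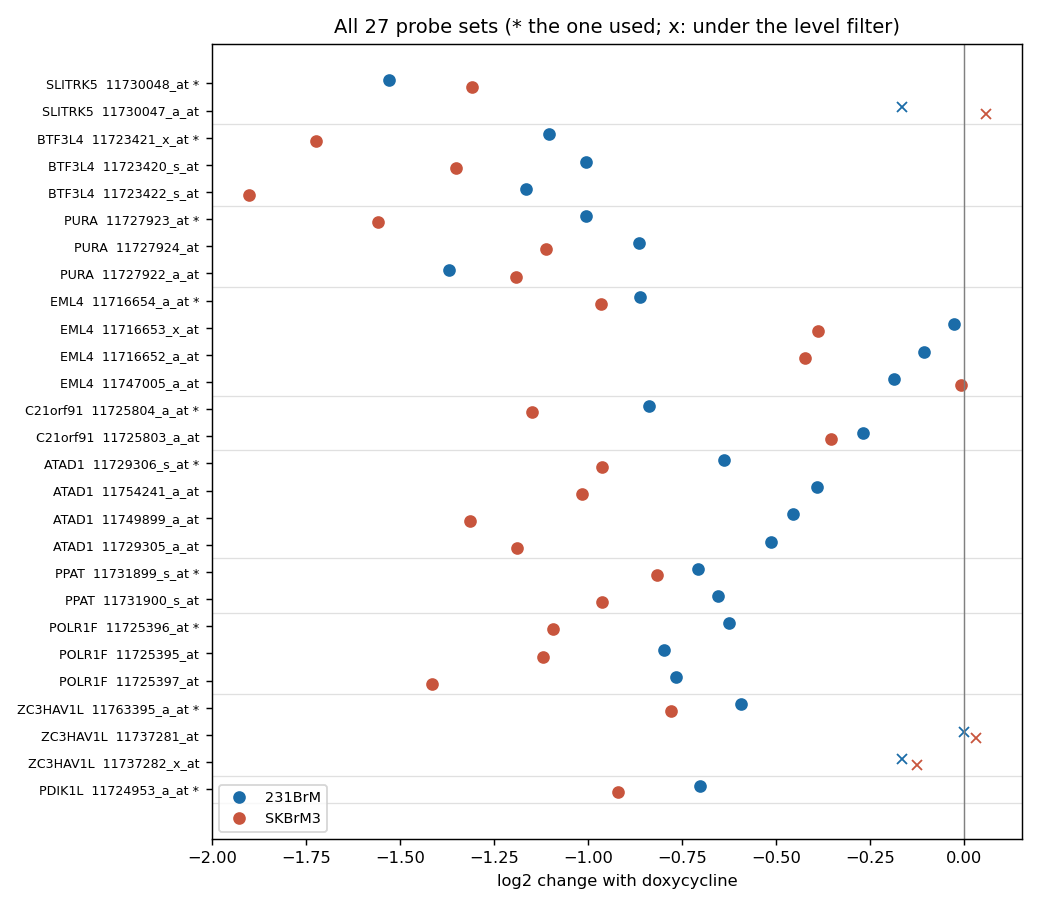
Log2 change with doxycycline in 231BrM and in SKBrM3 for each of the 27 probe sets of the 10 genes, with the probe set used for the gene, the other passing ones and the 3 under the filter marked apart. The probe sets of BTF3L4, PURA, ATAD1, PPAT and POLR1F lie together well below 0, while the other EML4 probe sets lie between -0.42 and -0.01.

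For BTF3L4 the other probe sets had changes of -1.005 and -1.165 in 231BrM and of -1.35 and -1.90 in SKBrM3. All 3 BTF3L4 probe sets are of kinds (names ending in s_at or x_at) whose probes can match other transcripts, as are both of PPAT and the one used for ATAD1. POLR1F had -0.80 and -0.77 in 231BrM, and -1.12 and -1.42 in SKBrM3, from probe sets of the plain kind. PPAT's other probe set had -0.65 and -0.96. In these 3 genes every probe set had the larger fall in SKBrM3.

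The 2 other PURA probe sets had changes of -0.86 and -1.37 in 231BrM and -1.11 and -1.19 in SKBrM3. The second of them had the larger fall in 231BrM, against the other PURA probe sets, and its 231BrM doxycycline arrays stood apart at 6.71 and 7.38, with replicate 1 the lower. Hence the size of PURA's line difference depends on the probe set.

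ATAD1's 3 other probe sets had changes of -0.39, -0.45 and -0.51 in 231BrM and of -1.02, -1.31 and -1.19 in SKBrM3. The differences of effects were -0.62, -0.86 and -0.68, larger than the -0.32 of the probe set used (limma adjusted p over all probe sets 0.384, 0.383 and 0.445). All 4 ATAD1 probe sets were also higher in SKBrM3 control than in 231BrM control, by 0.44 to 0.73 (limma adjusted p over all probe sets 0.0036 to 0.00689). With doxycycline the order of the lines depended on the probe set. SKBrM3 had the higher mean on 2 of the 4 (8.17 against 8.05 on the one used, and 6.30 against 6.28) and the lower on the other two (7.63 against 7.70, and 7.28 against 7.42).

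EML4 was where probe sets disagreed. Its 3 other probe sets had changes of -0.02, -0.11 and -0.18 in 231BrM and of -0.39, -0.42 and -0.01 in SKBrM3, against -0.86 and -0.96 for the probe set used. The first had log2 values of 6.31 and 6.34 in 231BrM control and 6.51 and 6.10 in 231BrM doxycycline, so that the groups overlapped. The fall of EML4 in 231BrM thus rests on 1 of 4 probe sets, and which transcripts each probe set reads was not analysed here.

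The remaining probe sets were close to or under the filter. C21orf91's other probe set, between 4.0 and 4.7 on all arrays, had changes of -0.27 and -0.35. SLITRK5's other probe set (-0.16 and 0.06) and the 2 others of ZC3HAV1L (0.00 and -0.16 in 231BrM, 0.03 and -0.13 in SKBrM3) were under the filter and say nothing for or against the fall. The falls of SLITRK5, ZC3HAV1L and PDIK1L therefore rest on 1 informative probe set each.

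Over all 24 passing probe sets, 21 had the larger fall in SKBrM3. The exceptions were the SLITRK5 probe set used, the PURA one named above and 1 of EML4. The share of all probe sets with the larger fall in SKBrM3 was not worked out. Among all genes tested, 56.6% had a difference of effects below 0. The test of that difference across 28866 probe sets called 0% of them (limma). At an unadjusted p under 0.05 there were 2714 of the 28866, of which 13 were among the 24. Of all genes tested, 11.2% were under that level. Several of the 24 read the same gene on the same arrays. The counts of 21 and 13 are therefore descriptions and not independent readings. Between the control groups 8 of the 24 were called, against 33.4% of all probe sets. Among them was a BTF3L4 probe set other than the one used, lower in SKBrM3 (7.87 against 8.20, limma adjusted p over all probe sets 0.0223).

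The fourth question is whether genes that work with the 10, or resemble them, moved too. The lists comprised 61 relatives, of which 52 were tested. None of the 52 was called in either line by limma, while 0.162% of all genes were called lower in 231BrM and 2.28% in SKBrM3. At an unadjusted p under 0.05, 0 were lower and 3 higher in 231BrM, and 2 were lower and 5 higher in SKBrM3. Of all genes tested, 3.74% were lower and 6.15% higher by that measure in 231BrM, and 9.81% and 10.4% in SKBrM3. The relatives' median log2 change was 0.11 in 231BrM and 0.02 in SKBrM3, near the 0.05 and 0.01 of all genes, and the range was -0.19 to 0.33 and -0.40 to 0.54.

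**Figure D5:**
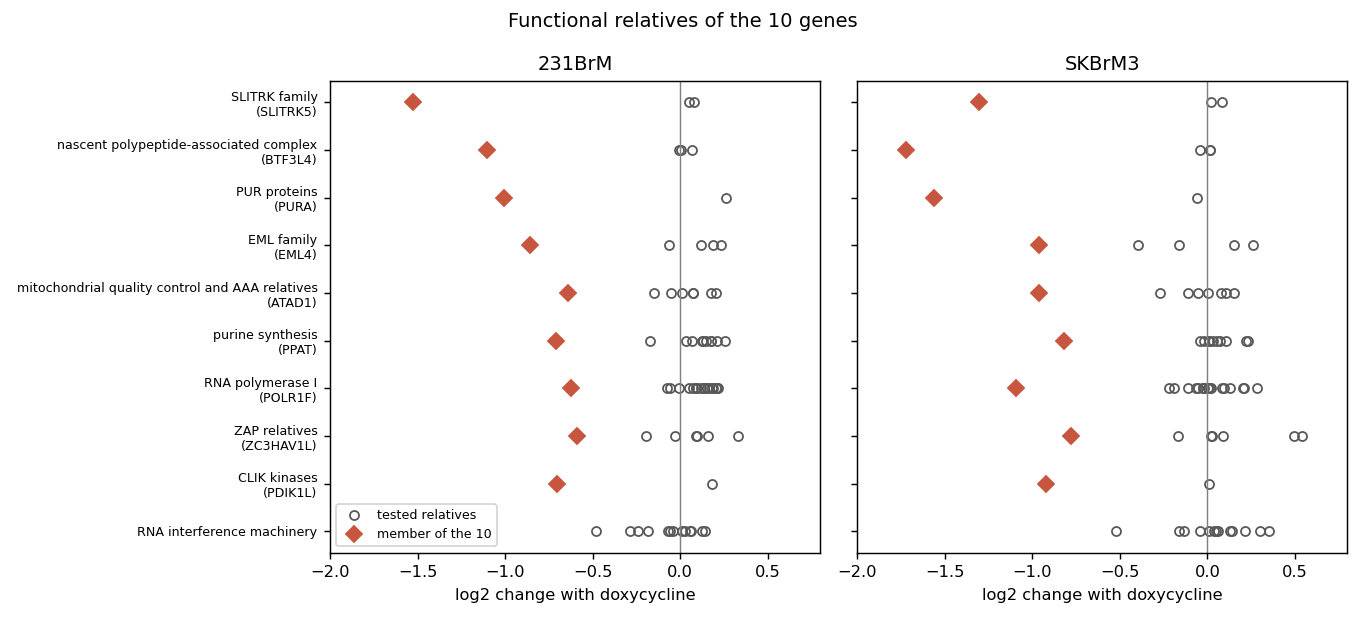
Log2 change with doxycycline in 231BrM and in SKBrM3 for the relatives tested (open circles), by list, with the member each list belongs to (diamonds) and the RNA interference genes in the last row. Relatives run from -0.19 to 0.33 in 231BrM and from -0.40 to 0.54 in SKBrM3, to the right of the members, which reach from -1.53 to -0.59 and from -1.73 to -0.78.

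Purine synthesis was measured by 10 further genes beside PPAT, among them GART, the enzyme after PPAT, and IMPDH1, which makes the precursor of guanine nucleotides. Their changes ran from -0.17 to 0.26 in 231BrM and from -0.04 to 0.23 in SKBrM3. GART had 0.18 and 0.23 (limma adjusted p = 0.501 and 0.139), and IMPDH1 had 0.26 and 0.22 (adjusted p = 0.388 and 0.159). None of the 10 was called by limma in either line, and an unadjusted p under 0.05 was reached in each line by 2 genes, both higher, and by 0 lower ones, where 6.15% (231BrM) and 10.4% (SKBrM3) of all genes were higher.

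POLR1F stood in the same position among RNA polymerase I genes. The 18 other subunits and initiation factors tested had changes of -0.07 to 0.22 in 231BrM and -0.22 to 0.28 in SKBrM3, with medians of 0.13 and 0.00058. None of the 18 was called by limma, and at an unadjusted p under 0.05 there were 0 lower and 1 higher in each line, against the same shares of all genes.

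Paralogs of the members did not pass either. BTF3, the paralog of BTF3L4, had changes of 0.07 and 0.01 (limma adjusted p = 0.759 and 0.95), and PURB, that of PURA, 0.26 and -0.06 (adjusted p = 0.531 and 0.836). ZC3HAV1, next to ZC3HAV1L on chromosome 7, had -0.03 and 0.03 (limma adjusted p = 0.928 and 0.902), and STK35, related to PDIK1L, had 0.18 and 0.01 (adjusted p = 0.617 and 0.98). Of the family of SLITRK5, 2 of 5 genes passed the filter, SLITRK2 with 0.05 and 0.02 and SLITRK4 with 0.08 and 0.08. EML1, a microtubule protein like EML4, had the lowest SKBrM3 change of the relatives, -0.40 (limma adjusted p = 0.0681), with -0.07 in 231BrM. The highest were PARP14, 0.54 (limma adjusted p = 0.0961), and PARP12, 0.50 (adjusted p = 0.0515), which like ZAP belong to the antiviral PARP proteins.

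The RNA interference machinery, through which a hairpin acts, was read by 13 genes, and 0 were called in either line (limma), with 1 lower in 231BrM and 2 higher in SKBrM3 at an unadjusted p under 0.05, where 3.74% and 10.4% of all genes were. AGO2, the Argonaute that cleaves target messages, had changes of -0.48 and -0.52 with a wide error (SE 0.309, limma adjusted p = 0.613 and 0.382). In 231BrM it read 8.16 and 8.28 without doxycycline, and 7.13 on replicate 1 and 8.36 on replicate 2 with it. The 231BrM value thus rests on the array set apart by RNA quality, and replicate 2 lay above both controls. In SKBrM3 AGO2 read 8.72 and 8.76 without doxycycline and 8.28 and 8.15 with it. These groups did not overlap, and 27.2% of all genes tested were lower without overlap in SKBrM3. The SE is shared by both lines. The SD was 0.87 in 231BrM doxycycline, against 0.03 and 0.09 in SKBrM3 control and doxycycline. TARBP2, the partner of Dicer, had 0.35 in SKBrM3 (limma adjusted p = 0.0509). The median change of the 13 was -0.04 in 231BrM and 0.05 in SKBrM3.

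PAICS and TXNDC12, the partners in the pairs shown above, share a start region with a member and give the nearest comparison made here. PAICS, which carries out later steps of purine synthesis, starts 137 bases from PPAT across the GC-box stretch shown above. On the log2 scale it read 11.05 and 10.99 in 231BrM control, 10.78 and 10.91 in 231BrM doxycycline, 11.07 and 11.10 in SKBrM3 control, and 10.99 and 11.10 in SKBrM3 doxycycline. The change was -0.17 in 231BrM (SE 0.0824, limma adjusted p = 0.516) and -0.04 in SKBrM3 (adjusted p = 0.816), against -0.71 and -0.82 for PPAT. The 231BrM groups of PAICS did not overlap, and those of SKBrM3 did.

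TXNDC12, a thioredoxin-domain protein of the endoplasmic reticulum, starts 124 bases from BTF3L4 across the E-box stretch. The arrays gave log2 values of 8.74 and 8.74 in 231BrM control, 9.07 and 8.69 in 231BrM doxycycline, 8.73 and 8.69 in SKBrM3 control, and 8.33 and 8.48 in SKBrM3 doxycycline. The change was 0.14 in 231BrM (SE 0.121, limma adjusted p = 0.687) and -0.31 in SKBrM3 (adjusted p = 0.203), against -1.10 and -1.73 for BTF3L4. In SKBrM3 the doxycycline arrays of TXNDC12 lay below the controls, but the change did not pass the threshold.

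The nearest protein-coding gene on each side of each member, a set chosen after the values were seen, gave 20 neighbours, of which 14 were tested. The changes of these 14, TXNDC12 and PAICS among them, ran from -0.36 to 0.17 in 231BrM and from -0.49 to 0.22 in SKBrM3, with medians of 0.02 in each line. By limma 0 were called in 231BrM and 1 in SKBrM3, where 0.162% and 2.28% of all genes were called lower. The 1 called was IGIP, next to PURA. It encodes a small secreted protein that induces immunoglobulin A. IGIP had log2 values of 6.28 and 6.16 in 231BrM control, 5.86 and 5.87 in 231BrM doxycycline, 5.45 and 5.41 in SKBrM3 control, and 4.89 and 4.98 in SKBrM3 doxycycline. Its change was -0.36 in 231BrM (limma adjusted p = 0.217) and -0.49 in SKBrM3 (adjusted p = 0.0169), in the direction of PURA and smaller.

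Across the 8 arrays the 10 genes followed one another, as genes chosen for a common fall must in part. Pearson correlations of the 45 pairs ran from 0.604 to 0.996 with a median of 0.957, all over the same arrays. Against the mean of the other 9, C21orf91 correlated most, at 0.997, and ATAD1 (0.794) and ZC3HAV1L (0.769) least, the same genes that were higher in SKBrM3 control. Outside the 10, the genes whose profile over the 8 arrays was most like the mean of the 10 were RFTN1 (0.985), NRBP1 (0.984), B3GNT5 (0.984), FGFR1OP2 (0.983) and AFG3L2 (0.981). NRBP1 and B3GNT5 had changes of the size of the members, -0.80 and -0.83 in 231BrM and -1.21 and -1.26 in SKBrM3. RFTN1 (-0.30 and -0.50), FGFR1OP2 (-0.53 and -0.90) and AFG3L2 (-0.34 and -0.52) had the same shape at a smaller size.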

How the data were processed

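The deposited log2 values were produced by the authors with RMA, per the submitters' processing notes, which name no version; the chip definition is not given in the sources used here. Of 49386 probe sets, 45259 name 1 gene. Gene IDs gave current symbols through a RefSeq table (GRCh38.p14). For each gene the probe set with the highest mean was used, and genes above 4.41 on at least 2 arrays were tested (13002). The 8 arrays were fitted in R 4.3.3 as 4 group means with limma 3.58.1 (4 residual and 4.59 prior degrees of freedom), two-sided, with Benjamini-Hochberg adjustment over all genes or, separately, over 28866 probe sets. Precision is limited by having 8 arrays: the median SE of an effect in 1 line was 0.0968. The fit was tested on simulated data. The members and gene lists were chosen with earlier results of these data known. The rule for named genes took all members with all probe sets, MET, PAICS and the paralogs BTF3, PURB, ZC3HAV1 and STK35, any relative called, and the 5 genes most correlated with the members' mean. GART, IMPDH1, SLITRK2, SLITRK4, EML1, PARP12, PARP14, AGO2, TARBP2, TXNDC12, IGIP and the named line markers fall outside it and were chosen after their values were seen. Alternatives were other filters, probe set means, weights, priors, centring, a replicate block and leaving out each array. RMA equalises array distributions, which hides any change of the RNA content of a cell.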

Additional observations from a re-analysis of the deposited data

How the results depend on the processing

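The larger fall in SKBrM3 for 9 of the 10 genes was kept under each alternative run except without 231BrM doxycycline replicate 1 (8 of 10) and with the filter at the 60th percentile (8 of 9, PDIK1L not tested). All 10 were called lower in 231BrM in the fit reported, 10 with trend and robust priors or with centring, 7 with the replicate block, 7 with the mean of all probe sets, 6 with array weights and 0 with the line's own 4 arrays; in SKBrM3 9 or 10 were called in every setting. Genes called for the difference of effects (3; 0 higher and 3 lower) were 13 with trend and robust priors, 6 with centring (1 higher, 5 lower) and 0 to 473 with 1 array left out. Genes called in 231BrM (21) were 11 with array weights, 1 with its own 4 arrays, 45 with trend and robust priors, 43 with centring and 3 to 1650 with 1 array left out. Genes called in SKBrM3 (446) were 1604 with array weights, 1248 with its own 4 arrays and 52 to 1631 with 1 array left out. Between lines without doxycycline (5167) they were 3324 to 6576 with 1 array left out. Of the members, 0 to 2 were called for the difference of effects with 1 array left out, 3 to 6 for the control difference, and 0 to 7 of their probe sets, an alternative added after seeing the data. The difference of EML4 reversed to 0.063 without 231BrM doxycycline replicate 1 (range -0.272 to 0.063). With the mean of all probe sets MET's difference reversed to -0.172 and its control difference to 0.218 (limma adjusted p = 0.023), and the control call of ZC3HAV1L was lost (0.148, adjusted p = 0.0979); the means include probe sets near background, and the cause was not tested. Deviations of same-numbered arrays correlated at -0.11 to 0.24, the highest being 231BrM control with 231BrM doxycycline. This does not settle whether the numbers pair the arrays. With the replicate block 16 genes were called in 231BrM, 389 in SKBrM3, 3 for the difference and 5112 between lines. The difference of effects needs all groups and was not run on 4 arrays. Each fit with 1 array left out has a single array in 1 group, so its counts of calls rest in part on that array.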
